A study of Mus musculus with 117 samples.

Results

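Tgm1, Cdsn, Ptx3, Steap4, Crym, Tm4sf19, Fstl3, Cacng6, Galr3 and Clec2i are 10 genes chosen for being raised in lesion border astrocytes of mouse spinal cord at every time measured after spinal cord injury (SCI). Not every gene met this in every mouse or line: at 70 d Clec2i was at 0 counts in 2 of 4 mice, and in a further mouse line Tm4sf19 and Clec2i were not above the RNA left over from the same tissue. They were chosen from measured values, out of the 27179 genes counted in each library. The values that chose them were those of astrocyte RNA of Aldh1l1-CreERT2 female mice at each time after SCI against uninjured mice, and of astrocyte RNA against the RNA left over from the same tissue. These comparisons are therefore given for the 10 genes as a description. Where calls at a threshold are counted for them below, they show how the choice was met and are no test. All 10 genes were found in the count files by their Entrez numbers.

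The libraries came from C57BL/6 mice that carried RiboTag, a ribosomal protein that gains an HA tag in cells with Cre. Each mouse carried 1 of 2 drivers. Aldh1l1-CreERT2 tags cells that express Aldh1l1 when tamoxifen is given, and mGfap-Cre-73.12 tags cells with a history of Gfap promoter activity and needs no tamoxifen. Ribosomes were pulled down by their HA tag from a block of cord around the lesion centre after a complete crush SCI, or from the same region of uninjured mice. RNA from these ribosomes gave 70 astrocyte libraries, and RNA left in the supernatant gave 47 flow-through libraries that hold RNA of all cells of the block. Young adult female Aldh1l1-CreERT2 mice were uninjured (4 mice) or studied 2 d (5 mice), 5, 14, 28, 42 and 70 d (4 mice each) after SCI, and males at 5 and 14 d (4 mice each). The mGfap-Cre-73.12 mice were females at 14 d after SCI (5 mice) and uninjured mice at postnatal day 63 (P63, 5 mice, 3 males and 2 females), both with flow-through libraries. Younger uninjured mice of this line gave astrocyte libraries only, from 4 mice at P0, 3 at P3, 3 at P7, 5 at P14, 4 at P21 and 4 at P35. The P0 mice were all males, and each of the other young groups held both sexes. One flow-through library at 5 d is labelled male although its title names no sex, and it was kept with the females.

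Astrocytes that proliferate after SCI line up as a dense border between surviving neural tissue and the fibrotic lesion core, and they keep an altered set of transcripts for as long as the border lasts. The 10 genes are known from different settings. Tgm1 encodes the transglutaminase that cross-links proteins of the cornified envelope of skin, and Cdsn encodes corneodesmosin, an adhesion protein of the same tissue. Ptx3 is a long pentraxin, a secreted pattern recognition protein of innate immunity that is also used as a marker of reactive astrocytes. Steap4 is a membrane enzyme that reduces iron and copper, and Crym binds thyroid hormone in the cytosol. Fstl3 is a secreted binding protein of activin. Cacng6 is a gamma subunit of voltage-gated calcium channels, and Galr3 is a receptor of the neuropeptide galanin. Tm4sf19 belongs to the L6 family of membrane proteins related to tetraspanins and is known from osteoclasts. Clec2i is a C-type lectin of the Clec2 family, whose members are ligands of natural killer cell receptors.

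The genes lie on 9 chromosomes of the mouse genome build GRCm38 (mm10). Tgm1 lies at chr14:55700009-55713921 (minus strand), Cdsn at chr17:35543101-35557180 (plus), Ptx3 at chr3:66219887-66225806 (plus) and Steap4 at chr5:7960472-7982213 (plus). Crym lies at chr7:120186380-120201989 (minus) and Cacng6 on the same chromosome at chr7:3423588-3435667 (plus). Tm4sf19 lies at chr16:32400012-32409234 (plus), Fstl3 at chr10:79777274-79782630 (plus), Galr3 at chr15:79041885-79043558 (plus) and Clec2i at chr6:128887587-128898168 (plus). Exons of 3 of the 10 overlap exons of another gene, so reads could be lost there, since default counting drops reads that overlap several genes. Tm4sf19 shares 735 bp with Gm20056 on the same strand, Galr3 shares 363 bp with Gcat on the same strand, and Fstl3 shares 1157 bp with Prss57 on the other strand. The mean of Gm20056 went from 1.34 to 4.07 CPM (counts scaled to a common library size) between uninjured and 14 d Aldh1l1-CreERT2 astrocytes and from 1.12 to 0.875 CPM between P63 and 14 d astrocytes of the other line, and Tm4sf19 was also higher in the former line after SCI. That of Gcat went from 60.1 to 27.7 CPM and from 47.8 to 29.5 CPM in the same groups, against the direction of Galr3, and Prss57 stayed between 0.219 and 0.362 CPM. Whether the overlap with Gm20056 changed the counts of Tm4sf19 was not tested. Clec2i has relatives of the Clec2 family on the same chromosome, and whether reads were lost between them was not tested.

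RefSeq (GRCm38.p6) gave 250 bases before the transcription start for 8 of the 10 genes, in 11 windows; Crym and Galr3 had none. These windows were searched on both strands for motifs of factors known from injury and inflammation. A gene is counted if any of its windows holds a match, whereas the shares over all mouse promoters are per window, so the 2 are not in the same unit. The STAT motif TTCNNNGAA was found in windows of 3 genes (Tgm1, Cdsn and Steap4) and in 7.02% of 32851 mouse promoters. The C/EBP motif TTGCNNAA was found in 3 (Cdsn, at its other start, Ptx3 and Steap4) and in 9.56% of all. The NF-kB motif, GGG and TTTCC with 2 free bases between, was found in 1 (Steap4, 1.41% of all) and the TEAD motif GGAATG in 1 (Cacng6, 12.6% of all). The AP-1 motif TGANTCA (6.75% of all) and the PU.1 motif GAGGAAGT (2.44% of all) were found in none. The windows of the genes whose injury response is followed most closely below are printed 5′ to 3′ on the gene's strand, with motif matches in capitals. Tgm1 (chr14:55713493-55713742, minus strand) holds 2 STAT matches, at -173 to -165 and -64 to -56 counted from the start, and Cdsn (chr17:35542851-35543100, plus) holds 1, at -160 to -152. The window of the other start of Tgm1 (chr14:55713089-55713338), not printed, holds no match to any of the 6 motifs. Steap4 (chr5:7960222-7960471, plus) holds an NF-kB match at -226 to -217, a STAT match at -116 to -108 and a C/EBP match at -87 to -80. Tm4sf19 (chr16:32400256-32400505, plus) and Clec2i (chr6:128887337-128887586, plus), which differed between the lines, hold no match to any of the 6. The window of Fstl3, which overlapped between the lines, holds none either.
Tgm1: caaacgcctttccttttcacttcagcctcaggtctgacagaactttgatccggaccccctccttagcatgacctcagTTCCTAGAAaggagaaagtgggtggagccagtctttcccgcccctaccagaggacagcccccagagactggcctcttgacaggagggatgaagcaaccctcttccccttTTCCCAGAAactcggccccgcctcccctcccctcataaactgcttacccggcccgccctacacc
Cdsn: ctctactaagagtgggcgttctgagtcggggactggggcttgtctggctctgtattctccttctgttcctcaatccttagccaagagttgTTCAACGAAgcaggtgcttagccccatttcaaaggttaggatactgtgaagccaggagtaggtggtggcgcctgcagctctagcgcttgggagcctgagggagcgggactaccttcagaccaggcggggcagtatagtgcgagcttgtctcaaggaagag
Steap4: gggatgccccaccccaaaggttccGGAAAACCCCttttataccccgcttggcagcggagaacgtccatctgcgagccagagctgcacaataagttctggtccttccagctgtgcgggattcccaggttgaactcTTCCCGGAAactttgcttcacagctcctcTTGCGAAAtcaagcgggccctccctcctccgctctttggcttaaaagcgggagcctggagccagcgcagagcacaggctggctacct
Tm4sf19: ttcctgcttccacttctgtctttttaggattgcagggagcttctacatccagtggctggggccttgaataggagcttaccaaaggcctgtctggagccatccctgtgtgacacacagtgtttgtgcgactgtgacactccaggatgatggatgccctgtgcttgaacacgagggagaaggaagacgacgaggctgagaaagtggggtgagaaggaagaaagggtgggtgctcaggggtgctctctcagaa
Clec2i: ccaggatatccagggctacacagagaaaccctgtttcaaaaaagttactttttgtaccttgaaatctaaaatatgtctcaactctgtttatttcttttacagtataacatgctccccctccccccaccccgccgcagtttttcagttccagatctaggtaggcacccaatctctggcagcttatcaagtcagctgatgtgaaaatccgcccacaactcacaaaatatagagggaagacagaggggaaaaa
A match describes letters in the window and not a bound site.

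CPM were scaled over all astrocyte and flow-through libraries together, and levels of different genes are set side by side only as CPM per kilobase of exon. The libraries held 40710428 to 136008399 counts (median 95831369). Astrocyte markers were the check of the tissue label: all 10 of 10 were above flow-through at P63 and in males at 14 d, and 9 of 10 in mGfap-Cre-73.12 mice at 14 d, whose marker sum was lower after SCI (median 18648 CPM) than at P63 (47289 CPM). In bulk libraries such as these, fewer cells of a type and less RNA per cell cannot be told apart. In the flow-through libraries of females at 2 d, 10 genes had a median of at most 3 counts although every other flow-through library held at least 50; no other flow-through group had such a gene. Fstl3 was low in the same way there, with 6, 0, 0, 0 and 0 counts. Values that rest on these libraries are therefore also given without them.

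The first question was how long each gene stayed raised. In Aldh1l1-CreERT2 females all 10 genes passed FDR < 0.01 as higher than uninjured at all 6 times, which is what they were chosen for (10.6% of 18205 genes did so, and from 30.2% at the earliest time through 28.7%, 24.5%, 22.8% and 23.3% to 23.9% at the latest were higher at single times). They fell into genes that peaked at 2 d and genes that peaked later. Tgm1, Cdsn, Ptx3, Crym and Fstl3 had their highest mean at 2 d, Cacng6 and Clec2i at 5 d, Tm4sf19 and Galr3 at 14 d, and Steap4 at 42 d. For Cdsn the mean at 28 d (57.6 CPM) was about that at 2 d (57.9 CPM), so it had no single early peak.

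Tgm1 had the largest rise. It was measured at 0.265, 0.618, 0.448 and 0.532 CPM in the 4 uninjured mice and at 894, 644, 758, 763 and 649 CPM in the 5 mice at 2 d. At 70 d the 4 mice still held 50.2, 72.8, 88.3 and 83.5 CPM. No injured mouse came near an uninjured one: the mean was 1592-fold above uninjured at 2 d, 305-fold at 14 d and 216-fold at 42 d, although only 9.94% of the 2 d level was left at 70 d. Cdsn, the other gene of the cornified envelope, rose from a mean of 0.485 ± 0.111 CPM (SD, n = 4) to 57.9 ± 14.2 at 2 d (n = 5) and kept 34.2% of its peak at 70 d, at 19.8 ± 4.72 CPM (n = 4), 40.8-fold above uninjured. Between these times its mean dipped to 38.1 CPM at 5 d and was back at 57.6 ± 15.8 CPM at 28 d (n = 4). Its 5 d mice held 32.5, 31.4, 31.2 and 57.4 CPM, so that 1 mouse stood above the other 3.

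Ptx3 was the gene with the clearest level before injury, 3.84, 4.62, 3.94 and 2.67 CPM. It stood at 228, 264, 206, 238 and 224 CPM at 2 d and at 35, 61.4, 56.1 and 54.6 CPM at 70 d, which is 61.5-fold and 13.7-fold above uninjured. The mice spread more widely at 28 d, where 2 mice held 162 and 176 CPM and the other 2 held 83.4 and 82.4, and at 42 d (83.7, 50.9, 54.7 and 95.3 CPM). Crym was barely present before injury (0.166, 0.512, 0.458 and 0.0779 CPM) and reached 111, 82.6, 104, 140 and 124 CPM at 2 d. It then settled between 23.9 and 40.1 CPM in every mouse from 14 to 70 d. The means over this time were 30.7, 36.7, 34.6 and 28 CPM, and the last was still 92.3-fold above uninjured at 70 d.

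Steap4 was the slowest. Uninjured mice held 3.16, 3.5, 1.77 and 1.35 CPM, and the 5 mice at 2 d held only 7.98, 7.36, 9.37, 9.1 and 8.7 CPM, 3.48-fold more. The means then climbed through 15 CPM (5 d), 80.6 (14 d) and 89 (28 d) to 92.5 CPM (42 d). At 70 d the mice still held 72, 90.8, 79.6 and 67.9 CPM, 83.9% of the highest mean. Galr3 followed a similar course at a lower level: its mean was 1.15 ± 0.333 CPM at 2 d (n = 5), 2.34-fold above uninjured with overlapping mice, and 10.6 ± 1.28 CPM at 14 d (n = 4), 21.5-fold above. At 70 d its 4 mice split into 5 and 4.12 CPM against 11.1 and 10.2 CPM, all above the uninjured range of 0.199 to 0.865.

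Cacng6, Tm4sf19 and Clec2i stayed at a few CPM or less, and Fstl3 did so by 70 d. Fstl3, the activin binding protein, went from 0.499 ± 0.308 CPM (n = 4) to 14.2 ± 1.86 at 2 d (n = 5), and its mice at 70 d (0.929, 1.01, 1.49 and 2.8 CPM) lay just above the highest uninjured mouse (0.916 CPM). Cacng6 reached 1.21, 1.62, 1.48 and 1.43 CPM at 5 d from 0, 0, 0.0407 and 0.13 CPM before injury. Its mice at 2 d and at 70 d overlapped with the uninjured mice, with lowest values of 0.0407 and 0.108 CPM. Tm4sf19 was at 0 in 3 of the 4 uninjured mice (0.0814 CPM in the other) and stood at 2.06, 4.37, 2.62 and 1.67 CPM at 14 d. By 70 d it had 0.216, 0.168, 0.11 and 0.249 CPM, 6.94% of its peak. Clec2i, at 0 in 3 of 4 uninjured mice and at 2 counts in the other, had 3.67, 2.97, 2 and 2.17 CPM at 5 d. At 70 d it was back to 0 counts in 2 mice and stood at 14 counts in each of the others, so its rise was not kept in every mouse. With no more than 2 counts in the uninjured group, no fold is given for it.

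**Figure D1:**
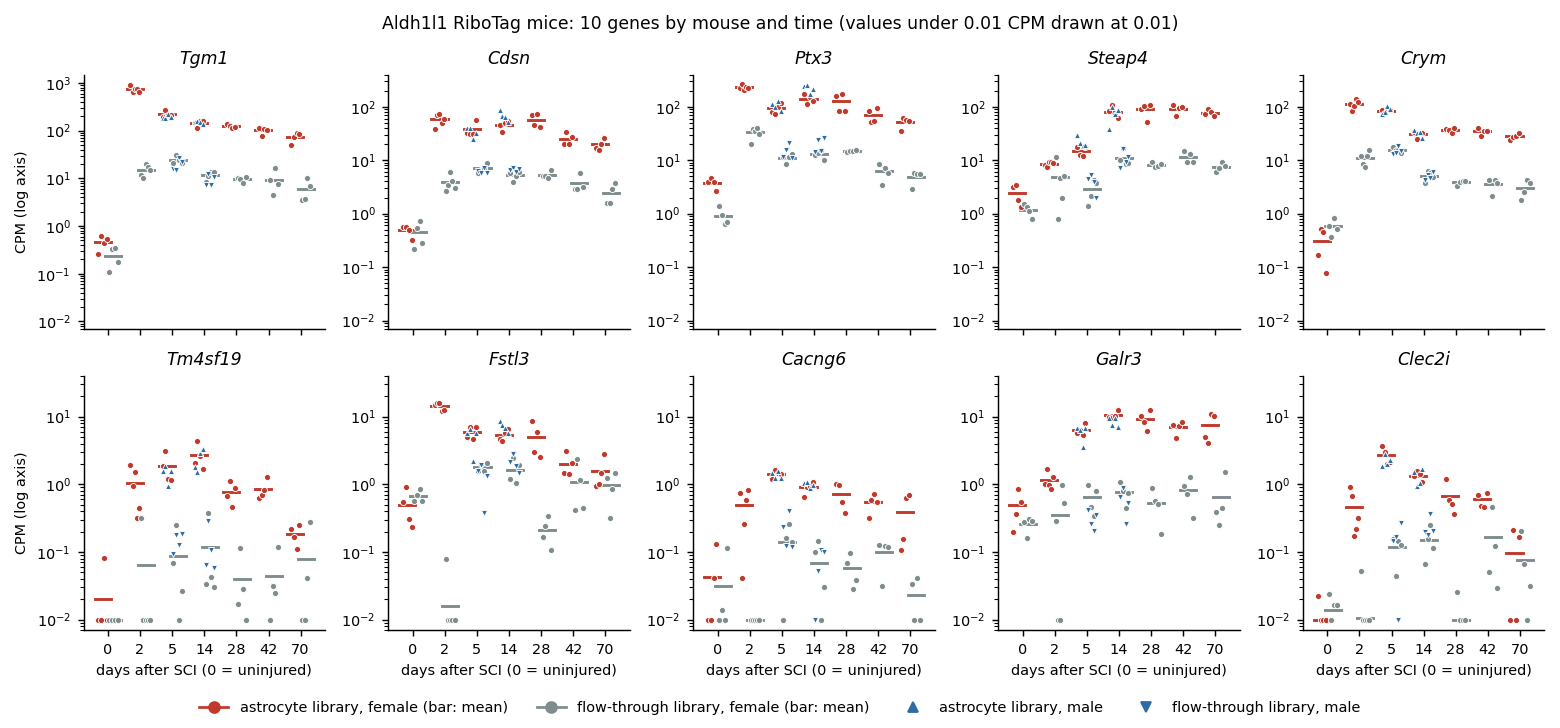
CPM (log axis) of each gene in every Aldh1l1-CreERT2 library against days after SCI (equally spaced, with day 0 for uninjured mice). Red circles are astrocyte and grey circles flow-through libraries of females with bars at the group means, and blue triangles are males (pointing up for astrocyte, down for flow-through); Steap4 and Galr3 climb to 14 d and stay, and Tm4sf19 and Clec2i fall by 70 d.

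Set side by side per kilobase of exon at 14 d, the genes spanned more than 2 orders of magnitude in Aldh1l1-CreERT2 female astrocytes. Ptx3 was highest at 73.6 ± 13.6 CPM per kb (n = 4), followed by Tgm1 at 43.9 ± 6.2, Steap4 at 25.7 ± 6.44, Crym at 24.4 ± 3.12 and Cdsn at 16.7 ± 3.25. Galr3 stood at 8.51 ± 1.03 and Fstl3 at 2.72 ± 0.525, and the other 3 were all under 1 CPM per kb: Tm4sf19 at 0.769 ± 0.341, Clec2i at 0.56 ± 0.087 and Cacng6 at 0.348 ± 0.0713. At 2 d Tgm1 led with 229 ± 31.6 CPM per kb (n = 5) and Steap4 stood at 2.71 ± 0.263. Ordered by mean over all 17 astrocyte groups, neighbouring groups mostly overlapped: of the 16 neighbour pairs, the mice did not overlap in 4 for Steap4 and Crym, in 3 for Tgm1 and Ptx3 and in 1 for each of the other 6.

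How far the rise belonged to the tagged cells was asked by comparing astrocyte with flow-through libraries of the same mice. In Aldh1l1-CreERT2 females the calls, part of the choice of genes, were 9 of 10 at 2 d (21.8% of 19640 genes were called), 10 of 10 at 5 d (14.0%), 14 d (12.6%) and 28 d (14.7%), and 7 of 10 at 42 d (10.9%) and 70 d (11.3%). A call here needed FDR < 0.01 and at least 2-fold. Tgm1, Cdsn, Ptx3, Crym and Galr3 were called at all 6 times (5.41% of genes were), and Steap4 joined them once the 2 d libraries were left out, making 6 of 10 (6.61%). Before injury, Ptx3 stood 4.12-fold above flow-through and Crym 1.9-fold below it, and the other 8 were not called in uninjured mice (14.7% of genes were called above and 23.2% below flow-through there).

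The ratio of astrocyte to flow-through means held its size for some genes and shrank for others. At 5, 14 and 70 d it was 9.17, 12.2 and 12.2 for Tgm1 and 8.38, 11 and 10.6 for Ptx3. For Tm4sf19 it was 21.2, 22.3 and 2.35, and for Clec2i 22.9, 9.12 and 1.27, so at 70 d both overlapped with flow-through. At 70 d the flow-through of 1 mouse held 0.276 CPM of Tm4sf19 and that of another held 0.202 CPM of Clec2i, the former above all 4 astrocyte libraries of that day and the latter above 3 of the 4. Without that mouse the 70 d ratio of Tm4sf19 was 12.2, with 4 counts left in flow-through, and that of Clec2i was 3.85, with 11 counts left. Without mouse 2 or 4 instead, that of Clec2i was 0.712 or 0.797. The ratios of Tm4sf19 at 5 and 14 d also rested on 1 flow-through library each, and were 43.7 and 60.2 without mouse 2. Steap4 was not called at 2 d, where the flow-through libraries scattered from 0.798 to 11.4 CPM. Fstl3 was 896-fold above flow-through at 2 d, a value that rests on the flow-through libraries that stood apart; later ratios were 3.3 (5 d), 3.22 (14 d), 23.7 (28 d) and 1.61 (70 d). At 28 d the flow-through level of Fstl3 was 0.164, 0.241, 0.335 and 0.107 CPM, below all 4 uninjured flow-through libraries (0.562 to 0.849 CPM).

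Flow-through levels rose too. In females at 14 d, Tgm1 in flow-through was 48.6-fold above uninjured (11.6 against 0.24 CPM), Ptx3 14.1-fold, Cdsn 11.7-fold, Steap4 9.32-fold and Crym 8.92-fold. At 70 d these were 25.3-fold, 5.33-fold, 5.46-fold, 6.3-fold and 5.31-fold. Flow-through libraries keep the RNA of all cells, tagged cells included.

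Males were studied at 5 and 14 d only and had no uninjured group, so the rise at every time could be read in females only. Whether male libraries entered the choice by enrichment is not stated. The tests in males are given with that limit. With edgeR's quasi-likelihood test, all 10 genes were enriched in astrocytes of male mice at 5 d (14.2% of 18487 genes were, and 16.6% lay below flow-through) and at 14 d (11.3% and 17.9%), and for all 10 the astrocyte and flow-through libraries did not overlap at either time (31.6% and 31.5% of genes). The median log2 ratio of the 10 was 2.68 at 5 d and 3.31 at 14 d, against 0.00 and -0.06 over all genes. Markers of some other cells were enriched in the same libraries. At 5 and 14 d these were 6 and 5 of 8 macrophage, 3 and 5 of 7 neutrophil and 2 and 3 of 5 erythrocyte markers, with none below flow-through and none at 0. Of 7 ependymal markers 1 and 2 were above and 3 and 4 below, and of 6 T cell markers 1 and 1 above and 2 and 4 below. The summed levels of the first 3 lists at 14 d were 10131 to 17347 against 3546 to 5321 CPM in flow-through, 122 to 295 against 95.3 to 105 CPM and 32.8 to 94.2 against 6.17 to 19.9 CPM. Their part in the ratios of the 10 genes was not tested. Galr3 had the largest ratio at 5 d. Its astrocyte libraries held 6.85, 6.45, 3.58 and 6.69 CPM and its flow-through libraries 0.418, 0.263, 0.205 and 0.349 CPM, a log2 ratio of 4.19 ± 0.34 (SE; edgeR FDR 1.38e-08). Tm4sf19 had the largest at 14 d, with 1.81, 1.51, 2.9 and 3.33 CPM in astrocytes and 0.0649, 0.283, 0.106 and 0.0576 CPM in flow-through (4.12 ± 0.47, edgeR FDR 8.98e-07). Tgm1 was close to it, at 138 to 162 CPM against 7.36, 12.1, 7.36 and 10.5 CPM (3.91 ± 0.19, edgeR FDR 4.86e-11). These 3 genes differ in function and in level, and in each the lowest astrocyte library was far above the highest flow-through library.

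The smallest ratios in males were those of Fstl3 and Clec2i at 14 d. Fstl3 held 8.69, 7.57, 6.9 and 5.78 CPM in astrocytes and 2.15, 2.79, 1.87 and 1.49 CPM in flow-through, a log2 ratio of 1.70 ± 0.39 (edgeR FDR 0.0011). Clec2i held 1.51, 0.952, 1.06 and 1.66 CPM against 0.195, 0.177, 0.362 and 0.206 CPM, a log2 ratio of 2.35 ± 0.56 (edgeR FDR 0.00163). This last call was lost without replicate 1 (FDR 0.014) or replicate 4; the other 19 male calls held whichever mouse was left out.

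Between 5 and 14 d in males, 3 genes rose and 1 fell, as called by edgeR's quasi-likelihood test after Benjamini-Hochberg adjustment (11% of genes rose and 12.8% fell). Steap4 went from 29.6, 21, 18.2 and 19.3 CPM to 38, 98.4, 74.1 and 86.4 CPM (log2 change 1.72 ± 0.31, FDR 0.000416). Ptx3 went from 111, 100, 127 and 82.9 to 247, 250, 170 and 215 CPM (1.03 ± 0.22, FDR 0.00167), and Cdsn from 40.5, 40.2, 24.4 and 32.2 to 88.5, 65.7, 65.6 and 50.7 CPM (0.94 ± 0.16, FDR 0.000235). In all 3 every mouse at 14 d was above every mouse at 5 d, although for Steap4 the lowest, at 38 CPM, stood well apart from the other 3. Crym fell, from 73.9, 79.4, 102 and 90.3 CPM to 36, 32.9, 33.5 and 26.2 CPM (log2 change -1.46 ± 0.14, FDR 4.57e-07), and its groups did not overlap. The other 6 did not pass, with log2 changes from -0.82 (Clec2i) to 0.63 (Tm4sf19) and FDR from 0.077 to 0.387. Male and female astrocytes, set side by side with no test, did not overlap in 1 of 10 genes at each time (1.80% of 17094 genes at 5 d and 3.50% of 17062 at 14 d, in either direction), Steap4 at 5 d (males 1.47-fold higher) and Galr3 at 14 d (males 1.25-fold lower).

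The mGfap-Cre-73.12 mice were studied after SCI at 14 d only. Whether their libraries entered the choice is not stated, and the tests of injured mice and of enrichment in this line are given with that limit. At 14 d after SCI, 6 of the 10 genes were higher in their astrocytes than at P63 with edgeR's quasi-likelihood test (18.2% of 18380 genes were), none was lower, 2 did not pass and 2, Tm4sf19 and Clec2i, had too few counts to be fitted. The median log2 change of the 8 fitted genes was 5.22, against 0.07 over all genes. The P63 mice were of both sexes and the injured mice were all females. In this comparison of astrocyte libraries, no call of a member changed with the labelled sex in the model.

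Tgm1 rose most, from 0.124, 0.426, 0.242, 0.967 and 0.695 CPM in the P63 mice to 140, 80, 95.7, 128 and 108 CPM (225-fold; log2 change 7.79 ± 0.76, edgeR FDR 2.56e-09). Steap4 rose from 0.931, 0.412, 0.242, 2.85 and 0.884 CPM to 69.2, 52.1, 62.4, 144 and 52.3 CPM (71.5-fold; 6.14 ± 0.74, edgeR FDR 1.03e-07). Its highest mouse in each group stood apart, and all injured mice were far above all P63 mice. Crym rose from 0.838, 0.309, 0.412, 0.744 and 1.2 CPM to 46.6, 30, 31, 29.9 and 31.9 CPM (48.3-fold; 5.59 ± 0.36, edgeR FDR 2.83e-13). Cdsn rose from 0.155, 1.12, 1.05, 1.3 and 0.9 CPM to 23.1, 28.4, 72.3, 33.1 and 42.6 CPM (44.1-fold; 5.45 ± 0.67, edgeR FDR 1.04e-07). Among the injured mice, 1 stood above the other 4 for each of these 2 genes, and the spread was wider for Cdsn than for Crym. Ptx3 rose from 4.8, 4.91, 3.62, 5.11 and 4.09 CPM to 182, 76.6, 162, 185 and 110 CPM (31.8-fold; 4.99 ± 0.26, edgeR FDR 4.6e-15), and Fstl3 from 0.45, 1.09, 0.611, 0.483 and 0.726 CPM to 1.94, 5.9, 8.74, 7.31 and 6.99 CPM (9.2-fold; 3.20 ± 0.54, edgeR FDR 1.12e-05). For Fstl3 the lowest injured mouse was only 1.94 CPM, yet it too was above every P63 mouse. These 6 calls held whichever of the 10 mice was left out.

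Galr3 and Cacng6 did not pass. Galr3 held 0.512, 0.456, 1.17, 1.1 and 0.947 CPM at P63 and 6.81, 5.46, 4.03, 5.37 and 7.11 CPM at 14 d. Its groups did not overlap and differed 6.88-fold, and its edgeR FDR was 0.0196 with a log2 change of 2.78 ± 0.97. With only these 2 groups in the model, or with DESeq2, the same difference passed FDR < 0.01. Cacng6 held 0, 0.647, 0.284, 0.0744 and 0.189 CPM at P63 and 0.361, 0.43, 0.774, 1.27 and 0.428 CPM at 14 d, overlapping, with a log2 change of 1.44 ± 1.14 (edgeR FDR 0.327). In counts, Tm4sf19 went from 0, 2, 0, 0 and 0 to 10, 3, 12, 17 and 3, and Clec2i from 0 in all 5 to 10, 2, 12, 2 and 4. Counting all 10 genes, the mice of the groups did not overlap, with SCI higher, in 8, among them Clec2i with 2 to 12 counts against 0. Of the 18380 genes with enough counts, which leave out Tm4sf19 and Clec2i, 20.9% did not overlap in this way.

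Astrocyte libraries of injured mGfap-Cre-73.12 mice also held more RNA of markers of other cell types. Some of these markers were above flow-through as well, as given below. Whether their RNA came from tagged or untagged cells was not tested. The summed level of 7 oligodendrocyte markers had a median of 34420 CPM at 14 d and 12296 CPM at P63 (range 25442 to 38483 against 9236 to 12999), that of 6 Schwann cell markers 4329 (2876 to 6267) against 2577 CPM (1338 to 2646), that of 7 stromal markers 895 (682 to 1407) against 223 CPM (no overlap) and that of 8 macrophage markers 240 (168 to 1473) against 12.3 CPM (8.49 to 14.1). The sums of 8 microglial (190 to 460 against 111 to 142 CPM), 7 ependymal (at least 240 against at most 176 CPM) and 6 endothelial markers (10.8 to 19.2 against 5.79 to 8.23 CPM) did not overlap either. Those of 6 markers of oligodendrocyte progenitors (1421 to 2105 against 1270 to 1503 CPM) and of 7 neutrophil markers (4.6 to 26.3 against 1.48 to 5.81 CPM) did. Of the neutrophil markers Ly6g was at 0 at P63, and no other marker of these lists was at 0 in either group. Of the 9 lists in this order, 6 of 7, 1 of 6, 5 of 7, 5 of 8, 4 of 8, 2 of 7, 1 of 6, 3 of 6 and 1 of 7 markers were called higher and none lower. Of 8 neuronal markers 3 were lower (sums of 87 to 362 against 299 to 420 CPM), and no T cell or erythrocyte marker was called. Their part in the rise of the 6 genes was not tested.

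In this line, 7 of the 10 genes were enriched over flow-through at 14 d (15.9% of 18427 genes were), against 3 of 10 at P63 (17.4%). Ptx3 had the largest ratio after SCI, with flow-through values of 8.81, 3.94, 7.6, 7.1 and 3.47 CPM, 23.1-fold below astrocytes (log2 ratio 4.51 ± 0.28, edgeR FDR 6.51e-11). Galr3 followed with 0.355, 0.234, 0.274, 0.126 and 0.464 CPM in flow-through (19.8-fold; 4.27 ± 0.49, edgeR FDR 2.74e-07) and Tgm1 with 7.54, 4.51, 7.09, 11.4 and 7.76 CPM (14.4-fold; 3.83 ± 0.37, edgeR FDR 2.15e-08). In all 3 the astrocyte library was above the flow-through library in 5 of 5 mice. Cdsn (log2 ratio 3.50 ± 0.46, edgeR FDR 1.79e-06), Crym (3.02 ± 0.32, 7.22e-08), Steap4 (2.71 ± 0.47, 4.61e-05) and Fstl3 (1.99 ± 0.46, 0.000749) were enriched too, and these 7 calls held without any single mouse. Cacng6 did not pass (1.58 ± 1.05, edgeR FDR 0.194). In the same libraries 5 of 7 oligodendrocyte, 5 of 6 Schwann cell, 6 of 7 ependymal, 4 of 6 oligodendrocyte progenitor and 1 of 8 microglial markers were also above flow-through, and their part in the ratios was not tested.

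Before injury the enriched genes were Ptx3 (log2 ratio 2.71 ± 0.28, edgeR FDR 4.19e-08), Galr3 (3.50 ± 0.51, 4.31e-06) and Cdsn (1.68 ± 0.49, 0.0049). Galr3 held 0 to 0.109 CPM in P63 flow-through, under the lowest astrocyte library of 0.456 CPM. The Cdsn call was lost without mouse 2, 4 or 5 (highest edgeR FDR 0.0388, without mouse 4) and with only the P63 libraries in the model. Tgm1 at P63 had a log2 ratio of 1.12 ± 0.44 (edgeR FDR 0.0285), and with the mouse as a block, which the pairing of the libraries allows, it passed (1.07, edgeR FDR 0.00456). Without mouse 4, Crym passed as enriched (edgeR FDR 0.00446, and 0.017 with all mice) and Steap4 passed as lower than flow-through (-1.47, edgeR FDR 0.00787, and -0.73, 0.188, with all mice). Whether the ratio changed with SCI was tested directly. It grew for Steap4 (3.44 ± 0.67 on the log2 scale, edgeR FDR 0.000329), Tgm1 (2.71 ± 0.56, 0.000559), Crym (2.08 ± 0.45, 0.000872) and Ptx3 (1.80 ± 0.37, 0.000568), 4 of 10 genes (15.3% of all). Cdsn (1.81 ± 0.65, edgeR FDR 0.0306) and Fstl3 (1.55 ± 0.64, 0.0566) passed only with the mouse as a block (1.84, edgeR FDR 0.00859, and 1.48, 0.0024). For Galr3 the change was 0.77 ± 0.68 (edgeR FDR 0.383), close to its SE.

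Flow-through of this line rose for 8 of the 10 genes at 14 d against P63 (30.5% of genes rose). Tgm1 rose by 5.06 ± 0.42 on the log2 scale (edgeR FDR 3.03e-09), from 0.167, 0.146, 0.234, 0.465 and 0.148 CPM, and Crym, Cdsn, Ptx3 and Steap4 rose by 3.50, 3.61, 3.17 and 2.68. Tm4sf19 was at 0 in all 5 P63 flow-through libraries and at 0.069, 0.275, 0.327, 0.242 and 0.124 CPM at 14 d, at least 7.06-fold higher against a floor of 3 counts per library (edgeR FDR 4.59e-05). Galr3 (1.99 ± 0.50, edgeR FDR 0.00147) and Fstl3 (1.63 ± 0.46, 0.00383) rose as well, and both calls were lost with labelled sex in the model. The Fstl3 call was also lost without injured mouse 3 or 4 or P63 mouse 1, 4 or 5 (highest edgeR FDR 0.0168, without injured mouse 3). Cacng6 did not pass (3.55 ± 1.24, edgeR FDR 0.016, and passed without injured mouse 4 or P63 mouse 2, lowest 0.00691). Clec2i, not fitted, was at 0 in all 5 P63 libraries and at 0.177, 0.0834, 0.371, 0.368 and 0.0412 CPM at 14 d, at least 7.09-fold higher.

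**Figure D2:**
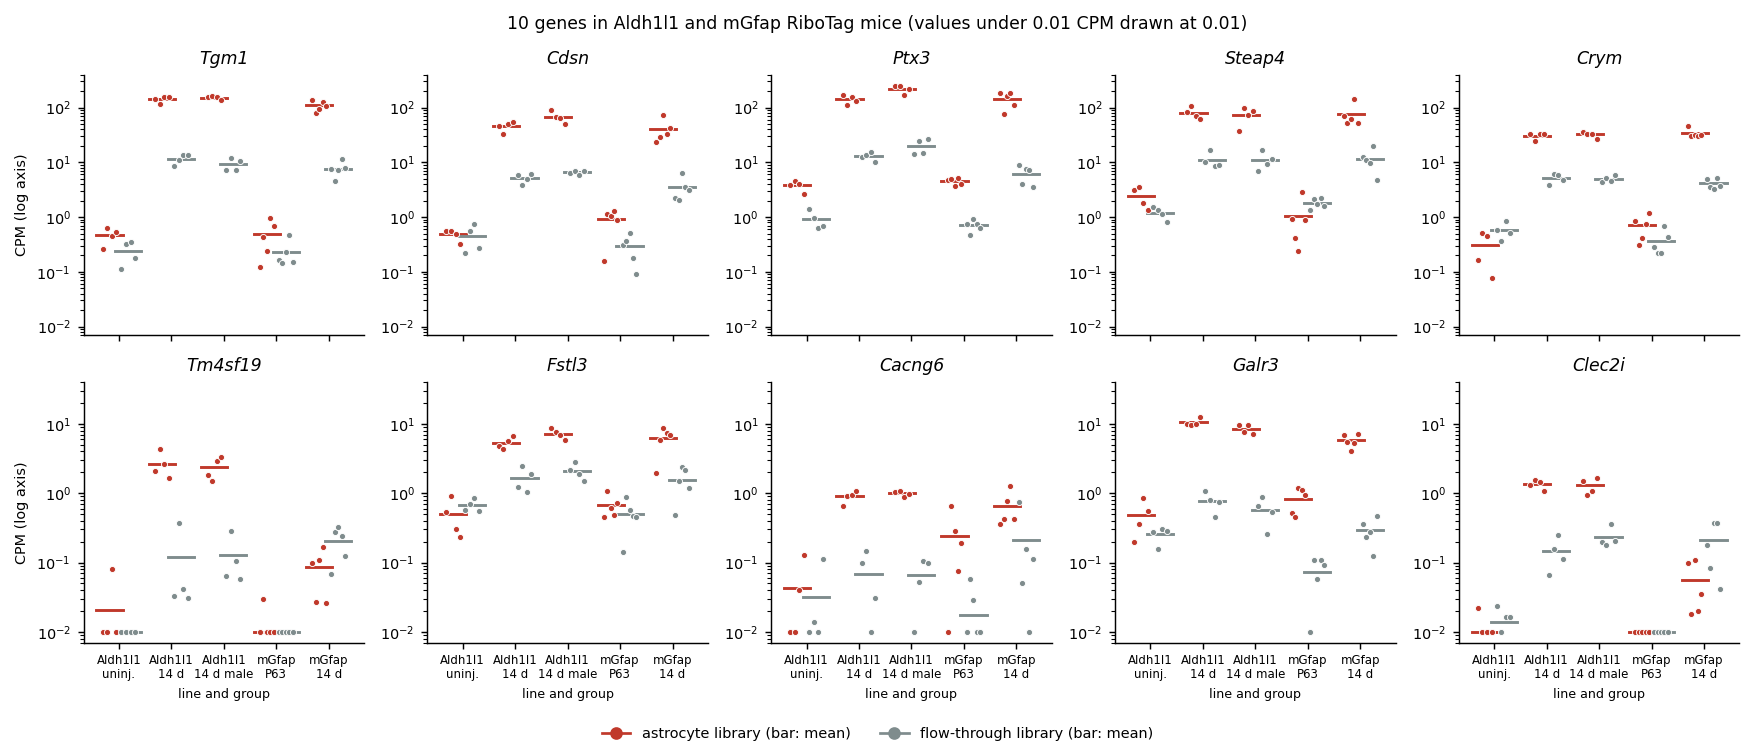
CPM (log axis) of each gene in astrocyte and flow-through libraries of the 2 lines, uninjured and at 14 d after SCI, each point 1 library. Most genes reach like levels in injured astrocytes of both lines, whereas Tm4sf19 and Clec2i are high in Aldh1l1-CreERT2 astrocytes only and have higher means in mGfap-Cre-73.12 flow-through than in its astrocytes. Values under 0.01 CPM are drawn at 0.01.

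Tm4sf19 and Clec2i were not above flow-through in this line. In mGfap-Cre-73.12 mice at 14 d the astrocyte library held less Tm4sf19 than the flow-through library in 4 of 5 mice and less Clec2i in 5 of 5. The Tm4sf19 astrocyte values were 0.0976, 0.0269, 0.107, 0.17 and 0.0262 CPM, 2.43-fold below flow-through in the mean and overlapping it (log2 ratio -1.30 ± 0.75, edgeR FDR 0.142). The Clec2i astrocyte values were 0.0976, 0.0179, 0.107, 0.02 and 0.0349 CPM, 3.76-fold below flow-through in the mean, with no test since it was not fitted. In the Aldh1l1-CreERT2 line the ratio had the other sign, as described for both sexes.

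Set side by side at 14 d with no test, since line and tamoxifen differ together, Tm4sf19 was 31.4-fold and Clec2i 24.3-fold higher in Aldh1l1-CreERT2 female astrocytes than in mGfap-Cre-73.12 astrocytes, and 27.9-fold and 23.4-fold in males. Galr3 was 1.84-fold higher (1.47-fold in males). These 3 of 10 did not overlap between lines with Aldh1l1-CreERT2 higher, in females and in males (18.5% and 18% of 17695 genes). The other 7 overlapped, with means within 1.01-fold (Ptx3) to 1.38-fold (Cacng6) of each other in females. Before injury 0 of the 10 did not overlap between the lines (23.2% of 16571 genes), and in flow-through at 14 d 1 of 10 did not (5.42% of 18247 genes), Ptx3 (2.09-fold higher in Aldh1l1-CreERT2).

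Markers of several cell types differed between the same libraries. In median sums at 14 d, Aldh1l1-CreERT2 female astrocytes held more than mGfap-Cre-73.12 astrocytes of neutrophil (165 against 6.43 CPM) and erythrocyte markers (32.3 against 1.41). The same held for microglial (1216 against 204), T cell (26.3 against 13.2) and endothelial markers (31 against 14.7). They held less of oligodendrocyte (2323 against 34420), Schwann cell (679 against 4329) and oligodendrocyte progenitor markers (317 against 1741). Macrophage markers differed as well. The summed level of the 8 markers Ms4a7, Lyz2, Ccr2, Cd68, Mrc1, Adgre1, Cd14 and Arg1 in astrocyte libraries at 14 d was 10240 to 15732 CPM in Aldh1l1-CreERT2 females (median 12337), 10131 to 17347 in males (15759) and 168 to 1473 in mGfap-Cre-73.12 mice (240). In flow-through it was 3960 to 5567, 3546 to 5321 and 3382 to 11881 CPM. None of the 8 was at 0 in any of these groups. In male Aldh1l1-CreERT2 mice at 14 d, 5 of the 8 were enriched over flow-through and none was below it, whereas in mGfap-Cre-73.12 mice all 8 were lower. Over time in Aldh1l1-CreERT2 female astrocytes the median sum stood at 52.6 CPM before injury and then at 3010 (2 d), 16595 (5 d), 4938 (28 d) and 2121 CPM (70 d). The part of RNA of macrophages or of any other of these cell types in the values of Tm4sf19 and Clec2i was not tested.

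**Figure D3:**
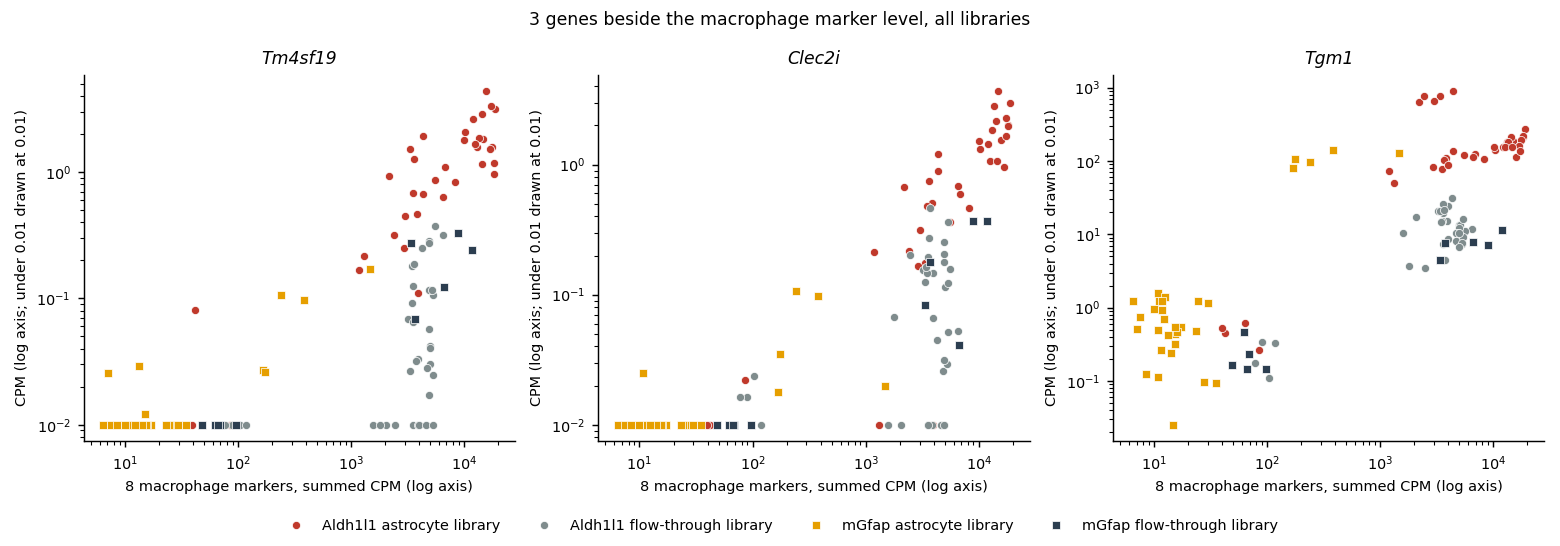
CPM of Tm4sf19, Clec2i and Tgm1 (log axis) against the summed CPM of 8 macrophage markers (log axis) in all libraries, coloured by line and fraction. Astrocyte libraries of mGfap-Cre-73.12 mice at 14 d lie at 168 to 1473 CPM of markers with at most 0.17 CPM of Tm4sf19 and 0.107 CPM of Clec2i and with 80 to 140 CPM of Tgm1.

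Before injury the genes were followed over postnatal life in mGfap-Cre-73.12 astrocytes, a comparison the choice did not use. Of the 10 genes, 3 changed over the 7 ages with edgeR's quasi-likelihood test (60.7% of 18380 genes did), 5 did not pass and 2 were not fitted. Marker levels also moved with age. From P0 to P63 the median sum of the 10 astrocyte markers went from 13190 to 47289 CPM and that of the stromal markers from 5754 to 223 CPM. The median sum of the Schwann cell markers was 13596 CPM at P0, 18796 at P7 and 2577 at P63, and that of the oligodendrocyte markers 4032 CPM at P0, 24156 at P21 and 12296 at P63. No marker of these lists was at 0 at any age, and their part in the age differences was not tested. Ptx3 (edgeR FDR 4.3e-12) had a transient peak at P14. Its mean was 3.05 CPM at P0, 3.65 at P3 and 5.7 at P7, and the 5 mice at P14 held 31.3, 13.8, 24.4, 25.4 and 24.7 CPM, 5.31-fold above P63 (log2 change 2.41 ± 0.24, edgeR FDR 2.6e-09; 12.9% of genes were higher at P14). Every P14 mouse was above every mouse of the other ages. At P21 it was at 9.7, 11.2, 6.24 and 6.79 CPM, a difference from P63 that passed narrowly (0.91 ± 0.24, edgeR FDR 0.00965; 4.77% of genes were higher and 2.19% lower) and was lost without P21 mouse 1, 2 or 4 or any P63 mouse (highest edgeR FDR 0.0614). This call was also lost with RLE scaling, with no filter, with labelled sex and with the replicate number as a block.

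Crym (edgeR FDR 2.06e-09) was higher in the astrocyte libraries of young mice. It held 5.82, 2.83, 2.57 and 6.71 CPM at P0, 4.73, 5.81 and 4.97 at P3, and 5.75, 5.42 and 5.5 at P7. From P14 on it declined, through means of 3.86, 1.6 and 0.896 CPM at P14, P21 and P35 to 0.7 CPM at P63. All mice from P0 to P14 were above all P63 mice, by log2 changes of 2.68 ± 0.33 at P0 (edgeR FDR 3.36e-08; 24% of genes were higher), 2.89 ± 0.35 at P3 (3.62e-08; 20%), 2.99 ± 0.35 at P7 (3.81e-08; 13.6%) and 2.46 ± 0.32 at P14 (4.61e-07). At P21 the difference did not pass (1.20 ± 0.33, edgeR FDR 0.0131), although the P21 and P63 mice did not overlap. It passed without P63 mouse 5 (0.00343), with DESeq2 and with the replicate number as a block. Injured astrocytes went beyond this: at 14 d after SCI Crym was 7.55-fold above P0 (log2 change 2.91 ± 0.35, edgeR FDR 1.5e-08).

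Galr3 (edgeR FDR 0.000671) was instead higher in the astrocyte libraries of older mice. It was at 0 in 8 of the 15 mice aged P0 to P14 and at most at 0.318 CPM in the others, and it held 0.56, 0.732, 0.605 and 0.939 CPM at P35. Against P63 it was lower by -5.69 ± 1.52 on the log2 scale at P7 (edgeR FDR 0.00345; 12.4% of genes were lower) and by -3.69 ± 1.07 at P14 (0.00713; 11.3%). The call at P7 was lost without P7 mouse 1 or 3 (highest edgeR FDR 0.0264), and the call at P14 without P14 mouse 2, 3, 4 or 5 or P63 mouse 3, 4 or 5 (highest 0.021). At P0 and P3 the differences were -3.41 ± 1.13 (edgeR FDR 0.0101) and -3.55 ± 1.29 (0.0228), and each passed without its single mouse with counts (lowest 1.11e-05, without P0 mouse 2, and 0.000808, without P3 mouse 1).

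Tgm1 (edgeR FDR 0.408) and Steap4 (0.555) showed no change over age that passed, with all mice from P0 to P63 between 0.0254 and 1.59 CPM of Tgm1 and between 0.0149 and 3.35 CPM of Steap4. Cdsn did not pass (edgeR FDR 0.0355), and passed without P0 mouse 4 (2.36e-05), which held 1.46 CPM against 0.171, 0.117 and 0.0234 CPM in the other 3. Fstl3 did not pass over all ages (edgeR FDR 0.0107, and passed without any 1 of 7 libraries, lowest 0.0013) and was higher than P63 at P0 (1.77 ± 0.53, edgeR FDR 0.00482), at 3.78, 3.02, 0.538 and 1.83 CPM; this call was lost without P0 mouse 1 or 2 or P63 mouse 1, 3 or 4 (highest 0.0277). Cacng6 did not pass (edgeR FDR 0.136, and 0.00444 without P0 mouse 2). At P35 none of the 10 differed from P63 (1.44% of genes were higher and 0.43% lower). Tm4sf19 and Clec2i were at 0 in 21 and 22 of the 23 postnatal libraries from P0 to P35, with at most 2 counts.

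**Figure D4:**
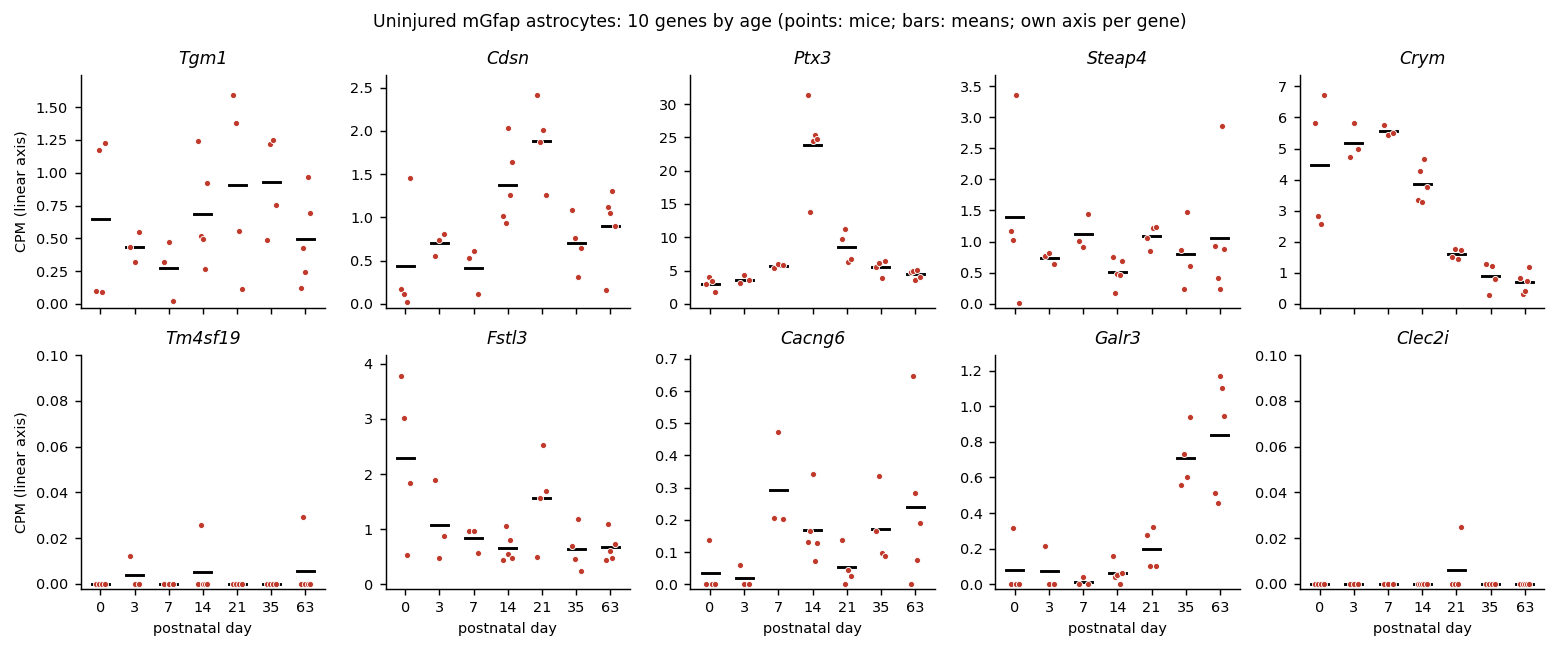
CPM (linear axis, its own scale for each gene) of each gene in mGfap-Cre-73.12 astrocytes against postnatal day from 0 to 63 (equally spaced), each point 1 mouse with bars at the group means. Ptx3 peaks at P14 with 13.8 to 31.3 CPM, Crym falls from P7 to P35, and Galr3 rises after P14.

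Compared with newborn astrocytes, injured astrocytes of the line were higher in 6 of the 10 genes (27.5% of genes were) and lower in none (23.6%). The P0 mice were all males and the injured mice all females, so that sex and group cannot be told apart here. Median marker sums differed as well. At P0 and at 14 d after SCI they were 13596 and 4329 CPM for Schwann cell and 5754 and 895 CPM for stromal markers. Those of oligodendrocyte markers were 4032 and 34420 CPM and those of astrocyte markers 13190 and 18648 CPM. Their part in the folds was not tested. Tgm1 was 171-fold, Cdsn 90.1-fold, Galr3 72.4-fold, Steap4 54.9-fold, Ptx3 47-fold and Crym 7.55-fold above P0, with log2 changes of 7.40 ± 0.82, 6.45 ± 0.78, 6.19 ± 1.27, 5.79 ± 0.80, 5.55 ± 0.30 and 2.91 ± 0.35 and edgeR FDR from 7.8e-16 (Ptx3) to 0.000103 (Galr3). No P0 mouse overlapped with an injured mouse in these 6. Fstl3 did not pass (1.43 ± 0.54, edgeR FDR 0.0224) and overlapped, and passed without injured mouse 1 (0.00892). Cacng6 did not pass (4.21 ± 1.42, edgeR FDR 0.011) and passed without P0 mouse 2 (0.00017), the only P0 mouse with counts.

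Genes related to the 10 were read from lists, without the 10 themselves, in mGfap-Cre-73.12 mice at 14 d and in Aldh1l1-CreERT2 females at 70 d (21.5% of 18205 genes were lower at 70 d and 15.9% in the former). Of 34 cornified envelope and corneodesmosome genes, 23 and 19 had enough counts, and 4 and 5 were higher and none lower (18.2% and 23.9% of all genes were higher), with medians of 1.41 and 0.44 on the log2 scale against 0.07 and 0.05 over all genes. They included Sprr1a, a small proline-rich envelope precursor (5.76 ± 0.66, edgeR FDR 1.99e-08, and 1.48 ± 0.37, 0.00138), and Ppl, the plakin periplakin (3.36 ± 0.72, 0.000275, and 2.07 ± 0.33, 4.9e-06). Klk7, a protease that cleaves corneodesmosin, was called in the former only (5.12 ± 1.34, 0.00279, and 1.85 ± 1.84, 0.407), at a mean of 0.351 CPM, and Pkp3, the desmosomal plakophilin, at 70 d only (2.34 ± 1.24, 0.13, and 2.89 ± 0.47, 7.02e-06). Of the other transglutaminases, 1 of 6 and 3 of 5 were higher, among them Tgm2 (0.78 ± 0.20, edgeR FDR 0.00187, and 1.66 ± 0.23, 8.74e-07); F13a1, a coagulation factor subunit, and Tgm4 were higher at 70 d (2.14 ± 0.31, 2.67e-06, and 0.51 ± 0.12, 0.000891). Of the other pentraxins, 0 of 4 and 0 of 3 were higher, and Nptx1, a neuronal pentraxin, was lower at 70 d (-1.74 ± 0.24, edgeR FDR 5.05e-07).

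Around Steap4, 5 of 13 iron and copper handling genes were higher and 3 lower in both comparisons. The storage subunit Ftl1 (2.24 ± 0.17 and 2.78 ± 0.26) and the ferroxidase Cp (2.29 ± 0.24 and 1.75 ± 0.26) rose, and the transferrin receptor Tfrc (-2.67 ± 0.12 and -2.74 ± 0.22) and Heph (-2.11 ± 0.27 and -1.99 ± 0.16) fell, with edgeR FDR of at most 3.69e-06 in each. Around Crym, 1 of 12 thyroid hormone genes was higher and 6 lower at 14 d, and 3 and 5 of 11 at 70 d. Dio2, the astrocyte enzyme that activates thyroid hormone, fell (-2.55 ± 0.37, edgeR FDR 2.1e-06, and -1.70 ± 0.18, 1.04e-08), as did the hormone-responsive factor Klf9 (-2.28 ± 0.24, 5.63e-09, and -0.77 ± 0.16, 0.000191). The hormone transporters Slc16a10 (2.42 ± 0.31, edgeR FDR 2.56e-07) and Ttr (2.39 ± 0.71, 0.00525) were higher at 70 d.

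Around Fstl3, 3 of 17 activin and follistatin genes were higher and 2 lower in both comparisons. Fst, the other activin binding protein, rose at 14 d (5.24 ± 0.66, edgeR FDR 1.54e-07) and did not pass at 70 d (1.30 ± 0.64, 0.0867), while the receptor Acvr1c fell in both (-4.16 ± 0.54, 2.94e-07, and -3.10 ± 0.30, 1.36e-09). At 14 d alone, the activin subunit Inhba fell (-1.19 ± 0.35, edgeR FDR 0.0062) and the inhibitor Smad7 rose (1.19 ± 0.19, 4.58e-06). Of the 7 other gamma subunits beside Cacng6, 1 was higher and 2 lower at 14 d, and 0 were higher and 4 lower at 70 d, among them Cacng2, known as stargazin (-2.22 ± 0.42, edgeR FDR 5.48e-05, and -2.19 ± 0.31, 9.15e-07). Cacng3 was lower at 14 d (-1.99 ± 0.58, 0.00543) and Cacng4 (-2.39 ± 0.29, 4.95e-08) and Cacng8 (-1.80 ± 0.17, 8.31e-10) at 70 d, all by edgeR. Of the galanin genes, Galr2 was higher at 14 d (4.36 ± 0.97, edgeR FDR 0.000445), at 0.27 CPM, and 0 of 3 were called at 70 d. Of the L6 family, Tm4sf1 was higher in both (2.55 ± 0.17, edgeR FDR 2.83e-13, and 4.09 ± 0.15, 5.47e-18), and 1 of 3 and 3 of 3 were, Tm4sf4 (7.34 ± 2.06, 0.00383) and Tm4sf5 (4.40 ± 0.97, 0.000342) at 70 d only. Of the Clec2 ligands and their NKR-P1 receptors, none was higher and 1 lower of 6 at 14 d in mGfap-Cre-73.12 mice, and 3 were higher and 1 lower of 6 at 70 d in the other line, with Klrb1b (4.66 ± 0.56, edgeR FDR 4.85e-08), and Klrb1c (5.67 ± 0.98, 1.68e-05), receptors of lymphoid cells, and Clec2d (2.65 ± 0.31, 3.32e-08) as the 3; Clec2l was lower in both (-0.93 ± 0.19, 0.000164, and -1.35 ± 0.18, 2.32e-07).

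Over the means of all 28 groups, the gene whose log2 CPM was most alike was named for each of the 10, as a description in which the points share injury, line and fraction. Tgm1 and Cdsn were each other's nearest (Pearson's r = 0.9732). Clec2i was nearest to Tm4sf19 (0.9587), and Tm4sf19 to Pira2 (0.9733), a receptor of myeloid cells. Steap4 was nearest to Lcn2 (0.9505), an iron-binding protein of reactive astrocytes, Galr3 to Ephx1 (0.9416), Crym to the intermediate filament gene Vim (0.9308), Ptx3 to the co-chaperone Bag3 (0.9303), Fstl3 to Kctd10 (0.9239) and Cacng6 to Hpgd (0.868), the enzyme that breaks down prostaglandins.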

How the data were processed

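RNA was sequenced from 70 astrocyte (anti-HA RiboTag) and 47 flow-through libraries of mouse spinal cord as poly-A selected libraries. Per the labels and the study's methods, HISAT2 alignments to mm10 of reads trimmed by Trimmomatic were counted by the authors with featureCounts at default settings, and raw counts of 27179 Entrez genes per library were deposited. A strand setting beyond the default is not given in the sources used here. Default counting drops reads that overlap several genes or map to several places, which lowers genes with overlapping neighbours or close relatives. All columns held a sample.

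Gene symbols came from RefSeq, which named 25275 of the 27179 Entrez numbers. Counts were scaled by TMM over all libraries together for CPM, and CPM per kilobase used the summed exon length. Levels are means ± SD over mice. Tests used edgeR 4.0.16 (R 4.3.3): filterByExpr, TMM, the quasi-likelihood F test and Benjamini-Hochberg adjustment over all genes kept (FDR), with FDR < 0.01 as the call and at least 2-fold for enrichment over flow-through, as in the study. In each line, comparisons among astrocyte groups shared 1 fit and comparisons that used flow-through libraries shared another. The males shared 1 fit. Animals were independent within a group. The main fits took the astrocyte and flow-through library of a mouse as independent, with the mouse as a block as an alternative. Alternatives were DESeq2 1.42.0, RLE scaling, no filter, FDR < 0.05, fits of 2 groups only, labelled sex, a block for the replicate and leaving out each library. Scripts ran in Python 3.11.15 (pandas 2.3.3, matplotlib 3.10.9) and were tested on simulated data. A fold against libraries all at 0 counts used a floor of 3 counts per library and covers counting error only.

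The study's design pairs each astrocyte library with the flow-through library of the same mouse. Over genes, their deviations from the group means correlated from 0.131 to 0.6 at P63 and from 0.123 to 0.72 at 14 d in mGfap-Cre-73.12 mice, and from -0.0359 to 0.705 and 0.186 to 0.54 in males at 5 and 14 d. The same number in different groups marks different mice.

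The 10 genes, the marker and pathway lists and the tests were chosen with earlier results of these data known. All 10 genes are named, with the 1 gene most alike in log2 CPM (prior count 2) to each over the group means, and of each pathway list up to 4 genes with the largest change past FDR < 0.01.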

Additional observations from a re-analysis of the deposited data

Results flagged for a closer look

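In 22 of 237 sets of a gene and a group of 4 or 5 libraries, 1 library lay far from the others by Dixon's criterion, which chance alone meets in about 1 in 20 sets. In astrocyte libraries these were Cdsn at 5 d with 57.4 CPM (next 32.5) and at P0 with 1.46 CPM (next 0.171), Steap4 at 14 d in mGfap-Cre-73.12 mice with 144 CPM (next 69.2) and at P63 with 2.85 CPM (next 0.931), and Crym at 14 d in mGfap-Cre-73.12 mice with 46.6 CPM (next 31.9). Crym was lowest in 1 Aldh1l1-CreERT2 female at 5 d with 75.6 CPM (next 86.3) and at 14 d with 24.9 CPM (next 32.3). Galr3 was low in 1 male at 5 d with 3.58 CPM (next 6.45) and high in 1 female at 14 d with 12.5 CPM (next 10.1), and at P0 only 1 mouse held Galr3 (0.318 CPM) or Cacng6 (0.138 CPM), the same mouse in both.

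In flow-through libraries, Tgm1 stood apart at P63 with 0.465 CPM (next 0.234), Cdsn at 42 d with 5.82 CPM (next 3.09), Ptx3 at 70 d with a low of 2.92 CPM (next 5.4) and Galr3 at 70 d with 1.5 CPM (next 0.447). Tm4sf19 stood apart in 1 library each at 2 d with 0.318 CPM (all others 0), at 14 d with 0.376 CPM (next 0.0422) and at 70 d with 0.276 CPM (next 0.0406). Cacng6 did so in uninjured mice with 0.114 CPM (next 0.0138), at 42 d with a low of 0.0318 CPM (next 0.117) and in mGfap-Cre-73.12 mice at 14 d with 0.739 CPM (next 0.159), and Clec2i in males at 14 d with 0.362 CPM (next 0.206).

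The astrocyte to flow-through ratio changed with SCI in mGfap-Cre-73.12 mice, in the test of the change itself, by 2.71 for Tgm1, 1.80 for Ptx3, 3.44 for Steap4 and 2.08 for Crym on the log2 scale. For Clec2i at 14 d the ratio of mean CPM was 0.266 in mGfap-Cre-73.12 mice, 9.12 in Aldh1l1-CreERT2 females and 5.52 in males, with every mouse below flow-through in the first and every mouse above it in the other 2; this difference was not tested.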

How the results depend on the processing

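Across all alternatives, all but 2 of the recomputed counts of the 10 genes and all but 1 of the counts over all genes stayed within 1.5 times the value given, and no called gene changed direction; of the values of single genes 1978 kept their side of the threshold, 51 gained it and 40 lost it. With FDR < 0.05, 5 in place of 3 genes changed over postnatal ages, 5 in place of 3 were enriched over flow-through at P63, and 6889 in place of 4400 of all genes differed between males at 14 and 5 d. Leaving out 1 library or mouse at a time gave, of the 10 genes, 6 to 6 higher at 14 d than at P63, 6 to 7 higher than at P0, 3 to 4 changed over age, 2 to 4 enriched at P63, 7 to 7 at 14 d, 4 to 4 with a changed ratio, 7 to 10 higher in flow-through, 10 to 10 and 9 to 10 enriched in males at 5 and 14 d and 4 to 4 changed between male times. Over single ages it gave 6 to 11 differences from P63 (9 with all mice). In the comparisons that chose the genes it gave 58 to 60 of 60 over the female time course. Over female enrichment it gave 52 to 55 of 70. These last counts describe the choice and are no test of it. With the mouse as a replicate block, 4 genes were enriched at P63 and 6 had a changed ratio, as named beside those results, and no other call over flow-through in males or mGfap-Cre-73.12 mice changed. With the replicate number alone as a block, which marks different mice (correlations of -0.054 to 0.362 between P63 and 14 d astrocytes, 3 of 5 mice closest to their own number), 6 genes stayed called against P63, 7 against P0 (Cacng6 gained) and 8 over single ages. Without the 2 d libraries, an alternative added after the data were seen, 10 genes were higher at all times and 6 enriched at all times. Leaving out each mouse in turn for the ratios of Aldh1l1-CreERT2 females, also added then, moved the ratios of Tm4sf19 and Clec2i by over 1.5 times as given beside them. Depth limits Tm4sf19, Clec2i and Cacng6, which had few counts outside injured Aldh1l1-CreERT2 astrocytes, where their folds and ratios are the least precise; the small groups of 3 to 5 mice limit all tests.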
